A study of Mus musculus with 8 samples.

Results

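The 6 genes described here encode receptors for the Fc part of immunoglobulin G and the subunit they signal through: Fcgr1, Fcgr2b, Fcgr3, Fcgr4, Fcer1g and Fcgrt. They were chosen by symbol, with GENCODE M21 as the source of names, and were 6 of the 47643 genes in the expression tables. All 6 passed the filter on low values, a mean of at least 10 normalized counts, together with 12029 genes in all. Their RNA was measured in mouse peritoneal macrophages, cells washed out of the abdomen of C57 BL/6 mice and kept for their adherence to plastic.

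The samples formed 2 groups of 4 libraries. In MΦ+FV-Casp8+Dimerizer, macrophages shared a transwell of 5 μm pore size with NIH 3T3 FV-hCasp8 cells, mouse fibroblasts that carry a human Caspase-8 fused to a dimerizer domain, and received 10 nM of B/B Homodimerizer, which sets off apoptosis in the fibroblasts. In MΦ+Dimerizer, macrophages without fibroblasts received the same 10 nM. RNA was taken 48 h after the dimerizer in both groups. The fibroblast line was picked as single clones. The series held no library of macrophages beside living fibroblasts, so the presence of fibroblasts and their death cannot be told apart. No age of these mice was found in the labels or the methods. Per the study's text, the replicates of a group are macrophages of different animals, while the labels only number them.

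Values are normalized counts of QuantSeq, a method that reads the 3′ end of each transcript. They are reads scaled by a factor for each library, on a scale common to all 8. The libraries held 5904441 to 11506556 reads. All 10 macrophage markers were detected, with Lyz2, the lysozyme of myeloid cells, at 198256 ± 9686 normalized counts in MΦ+FV-Casp8+Dimerizer and 163684 ± 4458 in MΦ+Dimerizer (SD, n = 4 each). Markers of fibroblasts, B cells, neutrophils and mast cells were also present, and the values that bear on a result stand beside it.

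Fcγ receptors bind antibody that coats a particle or a microbe and let a macrophage take it up. In mice FcγRI (Fcgr1), FcγRIII (Fcgr3) and FcγRIV (Fcgr4) are activating: they sit in the membrane together with the FcR γ chain (Fcer1g), whose tail holds an immunoreceptor tyrosine-based activation motif, the ITAM. FcγRIIb (Fcgr2b) is the inhibitory receptor. It needs no γ chain and carries its own inhibitory motif, the ITIM. Macrophages bear both kinds. FcRn (Fcgrt) is of another family: it resembles an MHC class I molecule, pairs with β2-microglobulin (B2m) and returns immunoglobulin G from endosomes to the cell surface. Interferon-γ is known to raise Fcgr1, and the complement fragment C5a to shift the balance between activating and inhibitory Fcγ receptors in mouse macrophages.

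The coding sequences of these motifs are shown because they divide the family into its activating and inhibitory arms. Each was read from a GENCODE M21 transcript of support level 1 on GRCm38, 5′ to 3′ on the sense strand, with the codons of the motif tyrosines in capitals. The ITIM of Fcgr2b lies within 1 coding exon and spans 18 bases at chr1:170961071-170961088 on the minus strand. The ITAM of Fcer1g spans 45 bases spread over 2 coding exons between chr1:171229889 and 171230072 on the minus strand.
Fcgr2b ITIM: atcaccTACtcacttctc
Fcer1g ITAM: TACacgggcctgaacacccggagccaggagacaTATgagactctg

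Of the 6 genes, 4 are neighbours on chromosome 1. On GRCm38, Fcgr2b (chr1:170958617-170976547, minus strand), Fcgr4 (chr1:171018920-171029761, plus strand), Fcgr3 (chr1:171051174-171064935, minus strand) and Fcer1g (chr1:171229572-171234365, minus strand) lie within 275749 bases. Fcgr1 stands alone at chr3:96282909-96293969 on the minus strand, and Fcgrt at chr7:45092990-45103851 on the minus strand. The span from Fcgr2b to Fcer1g holds 11 protein-coding genes, 4 of them listed above. Of the 7 others, 3 were expressed highly enough to be tested, and 0 of these 3 passed the test: Sdhc, a subunit of succinate dehydrogenase, had a log2 fold change of 0.12 (SE 0.09, adjusted p = 0.313), Tomm40l, related to a mitochondrial import channel, one of 0.24 (SE 0.14, adjusted p = 0.213) and Cfap126, a protein of cilia, one of 0.31 (SE 0.40, adjusted p = 0.6). These genes were named for their position.

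The family members are alike enough in sequence that reads could be shared between them. Over all annotated transcripts at full length, Fcgr2b and Fcgr3 had 166 stretches of 50 bases in common, of 5685 in Fcgr2b and 1733 in Fcgr3. QuantSeq reads fall at the 3′ end. In the last 400 bases of the coding transcripts, each of the 6 genes shared 0 stretches of 50 bases with other genes. Genes that overlap them on the map were at or near 0: Gm38204, antisense to the start of Fcgr2b, averaged 1.0 normalized counts in MΦ+FV-Casp8+Dimerizer and 0.0 in MΦ+Dimerizer, Gm26110 inside Fcgr4 averaged 0.5 and 0.6, and Mir6546 inside Fcgr3 was at 0.0 in both groups. Gm45669, antisense to the end of Fcgrt, was not analysed here.

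Of the 6 genes, 5 were higher in the co-culture with apoptotic fibroblasts at an adjusted p under 0.05, and 0 were lower. The count was 3 in edgeR, with quantile normalization, with a robust variance trend, and when replicate 1, 2 or 4 of MΦ+FV-Casp8+Dimerizer or replicate 1 or 2 of MΦ+Dimerizer was left out. Over all 12029 genes tested, 15.0% were called higher and 13.7% lower. The inhibitory receptor gene Fcgr2b rose 1.81-fold, FcRn gene Fcgrt 1.88-fold, Fcgr4 1.93-fold and Fcgr1 1.5-fold. The γ chain gene Fcer1g rose by the small factor of 1.16, and Fcgr3 did not pass the test. In 4 of the 6 genes every MΦ+FV-Casp8+Dimerizer library was above every MΦ+Dimerizer library, as was so for 15.3% of all genes tested. The median log2 fold change was 0.72 over the 6 genes and 0.01 over all genes tested. A bulk library cannot tell more RNA per cell from more cells of a type that bears the receptor.

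**Figure D1:**
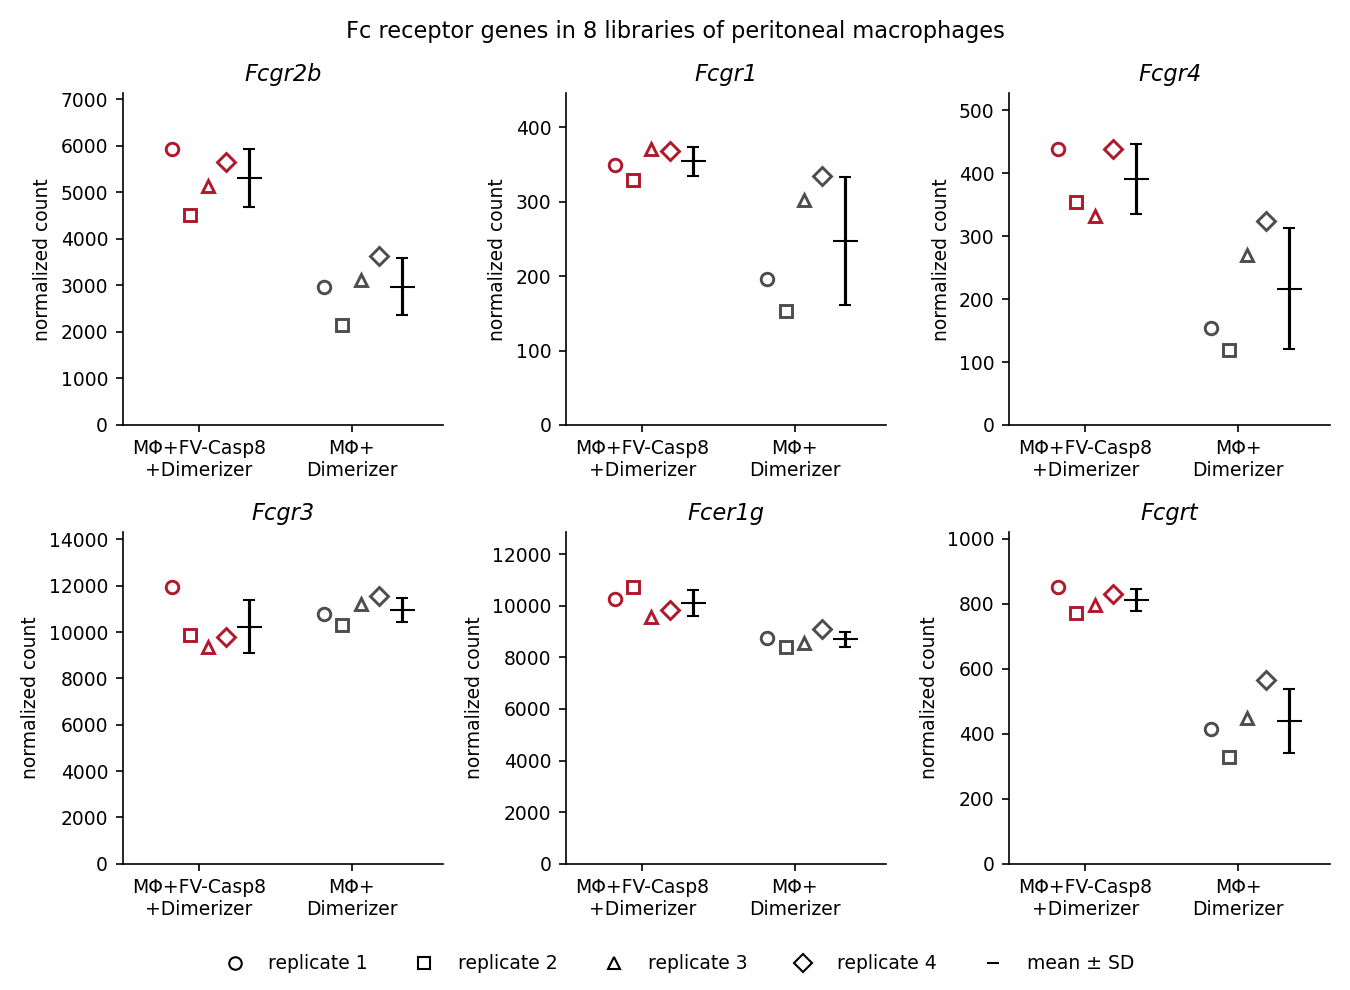
Normalized counts of the 6 genes, 1 panel each with its own axis from 0, in the 4 MΦ+FV-Casp8+Dimerizer libraries (left, red) and the 4 MΦ+Dimerizer libraries (right, grey); symbols mark replicate numbers and bars the mean ± SD. The groups are apart in Fcgr2b, Fcgr4, Fcer1g and Fcgrt, and overlap in Fcgr1 and Fcgr3.

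Fcgr2b encodes the only inhibitory Fcγ receptor of the mouse. It had 5935, 4507, 5135 and 5653 normalized counts in the MΦ+FV-Casp8+Dimerizer libraries of replicates 1 to 4, against 2959, 2158, 3125 and 3634 in those of MΦ+Dimerizer. The lowest co-culture library was above the highest library without fibroblasts. The means were 5308 ± 628 and 2969 ± 612 (SD, n = 4 each), with a log2 fold change of 0.86 (SE 0.14, 95% confidence interval 0.561 to 1.149) and an adjusted p of 0.000413 in limma.

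B cells and mast cells also express Fcgr2b, and both were present. The 8 B cell markers summed to 3472 to 8814 normalized counts in MΦ+FV-Casp8+Dimerizer and to 1456 to 8148 in MΦ+Dimerizer. Of 7 B cell markers tested, 1 was called higher, 1 lower (Cd22) and 5 were not called. The 9 mast cell markers summed to 567 to 1560 in MΦ+FV-Casp8+Dimerizer and to 659 to 3917 in MΦ+Dimerizer, with 0 of 8 tested called higher and 2 lower. All genes tested had 15.0% called higher and 13.7% lower. The most abundant B cell markers were the immunoglobulin chains, with Ighm at 2419 ± 1053 in MΦ+FV-Casp8+Dimerizer and 1872 ± 1202 in MΦ+Dimerizer and Igkc at 2300 ± 883 and 1888 ± 1370, and neither was called. The most abundant mast cell marker, the protease gene Cpa3, averaged 425.8 ± 152.4 in MΦ+FV-Casp8+Dimerizer and 707.4 ± 461.5 in MΦ+Dimerizer and was not called. For both cell types the sums of the groups overlapped, while those of Fcgr2b did not. The part of these cells in the Fcgr2b difference was not tested.

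Among the activating receptors, Fcgr1 encodes the high-affinity receptor, which binds single antibody molecules. It had 349, 330, 371 and 369 normalized counts in MΦ+FV-Casp8+Dimerizer, against 197, 153, 303 and 335 in MΦ+Dimerizer. The 4 co-culture libraries were close together, whereas replicates 1 and 2 without fibroblasts were well below replicates 3 and 4. Replicate 4 of MΦ+Dimerizer was above replicate 2 of MΦ+FV-Casp8+Dimerizer, so the groups overlapped.

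The means of Fcgr1 were 354.7 ± 19.4 and 247.0 ± 86.0, and its log2 fold change was 0.59 (SE 0.20, 95% confidence interval 0.17 to 1.01, adjusted p = 0.0379). The call was lost without MΦ+Dimerizer replicate 1 or 2, or without any single library of MΦ+FV-Casp8+Dimerizer, at log2 fold changes of 0.39 to 0.62 and adjusted p values of 0.0559 to 0.111. Without MΦ+Dimerizer replicate 2 the log2 fold change was 0.39. It was also lost in edgeR (0.49, adjusted p = 0.0664). The direction stayed the same throughout.

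Fcgr4 encodes the mouse receptor that binds IgG2a and IgG2b. It had 438.7, 353.7, 331.6 and 439.0 normalized counts in MΦ+FV-Casp8+Dimerizer, against 153.9, 118.7, 270.4 and 324.3 in MΦ+Dimerizer. The groups did not overlap, although replicate 4 without fibroblasts was just below the lowest co-culture library. Means were 390.8 ± 56.3 and 216.8 ± 96.6, with a log2 fold change of 0.95 (SE 0.25, 95% confidence interval 0.41 to 1.49, adjusted p = 0.0122). With a robust fit of the variance the adjusted p was 0.0746. Neutrophils express Fcgr4 as well. The neutrophil markers summed to 1020 to 1740 in MΦ+FV-Casp8+Dimerizer and to 2052 to 5233 in MΦ+Dimerizer, and their defining marker Ly6g was at 0 in every library. Most of that sum was Mmp8 (812.5 ± 258.1 in MΦ+FV-Casp8+Dimerizer and 2745 ± 1403 in MΦ+Dimerizer), whereas S100a8 averaged 331.8 ± 49.0 and 275.5 ± 51.9 and was not called. The part of neutrophils in the Fcgr4 difference was not tested.

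Fcgr3 encodes the low-affinity activating receptor that macrophages share with NK and mast cells. It had 11924, 9866, 9354 and 9798 normalized counts in MΦ+FV-Casp8+Dimerizer, against 10758, 10313, 11202 and 11539 in MΦ+Dimerizer. Replicate 1 of the co-culture was the highest of all 8 libraries, and replicates 2 to 4 were the lowest, so the groups overlapped. The means were 10235 ± 1148 and 10953 ± 533. The log2 fold change of -0.10 (SE 0.09, adjusted p = 0.428) had a 95% confidence interval of -0.30 to 0.09, which does not reach the rise of any of the 3 other Fcγ receptor genes.

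Fcer1g, the γ chain that all 3 activating receptors pair with, had 10280, 10711, 9574 and 9826 normalized counts in MΦ+FV-Casp8+Dimerizer. In MΦ+Dimerizer it had 8762, 8393, 8551 and 9090. Each group was tight and the groups did not overlap, but they were close. The means were 10098 ± 502 and 8699 ± 302, with a log2 fold change of 0.21 (SE 0.07, 95% confidence interval 0.06 to 0.37, adjusted p = 0.0432). The call was lost without MΦ+Dimerizer replicate 1, 2 or 3, or without MΦ+FV-Casp8+Dimerizer replicate 1, 2 or 4, at adjusted p values of 0.0692 to 0.0981, as it was with quantile normalization (0.17, adjusted p = 0.0616) and in edgeR (0.20, adjusted p = 0.0558).

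Fcgrt, the heavy chain of FcRn, had 849.9, 772.7, 795.5 and 830.1 normalized counts in MΦ+FV-Casp8+Dimerizer, against 415.0, 328.9, 447.2 and 566.1 in MΦ+Dimerizer. All co-culture libraries were above all libraries without fibroblasts. The means were 812.0 ± 34.5 and 439.3 ± 98.2 (SD, n = 4 each), with a log2 fold change of 0.91 (SE 0.13, 95% confidence interval 0.63 to 1.19, adjusted p = 0.000155).

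B2m, the light chain that FcRn shares with MHC class I, went the other way. It had 27259, 21815, 24843 and 23182 normalized counts in MΦ+FV-Casp8+Dimerizer, against 31658, 28015, 36121 and 37373 in MΦ+Dimerizer. The groups did not overlap, with lower values in the co-culture. The log2 fold change was -0.45 (SE 0.12, adjusted p = 0.0104), so that RNA of the heavy chain rose while RNA of the light chain fell.

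**Figure D2:**
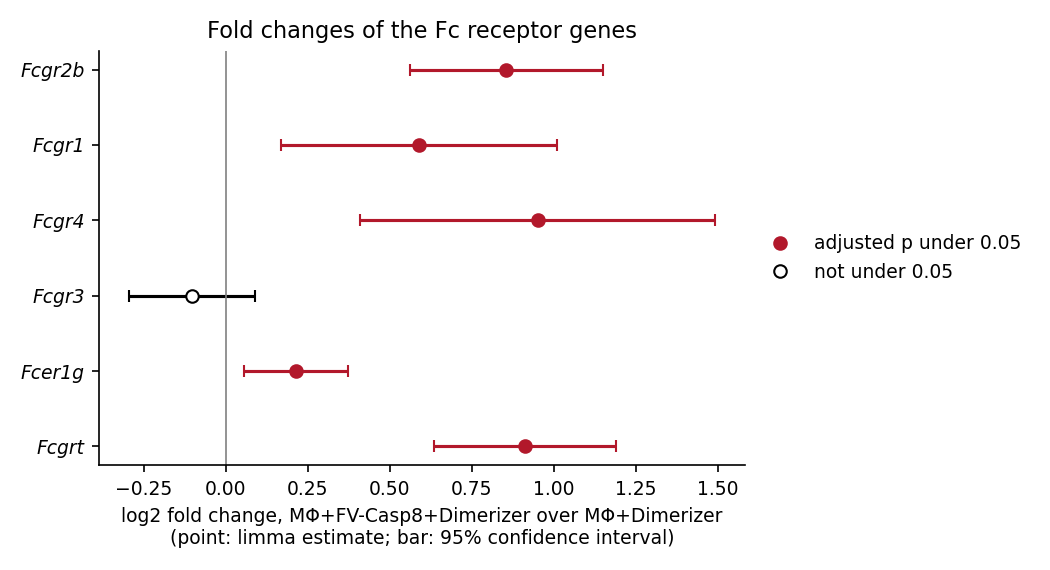
Log2 fold changes of the 6 genes, MΦ+FV-Casp8+Dimerizer over MΦ+Dimerizer, as limma estimates with 95% confidence intervals; filled points have an adjusted p under 0.05. Fcgr2b, Fcgr4 and Fcgrt lie between 0.86 and 0.95, Fcer1g at 0.21, and the interval of Fcgr3 includes 0.

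The members differed in how much the libraries of a group varied. In MΦ+Dimerizer the coefficient of variation was 44.6% for Fcgr4, 34.8% for Fcgr1, 22.3% for Fcgrt and 20.6% for Fcgr2b, against 4.9% for Fcgr3 and 3.5% for Fcer1g. In MΦ+FV-Casp8+Dimerizer it was 14.4% for Fcgr4, 11.8% for Fcgr2b, 11.2% for Fcgr3, 5.5% for Fcgr1, 5.0% for Fcer1g and 4.3% for Fcgrt. The 4 genes that varied most without fibroblasts were the 4 with the largest fold changes. The highest library exceeded the lowest 2.73-fold for Fcgr4 and 2.18-fold for Fcgr1 in MΦ+Dimerizer, against 1.32-fold and 1.13-fold in MΦ+FV-Casp8+Dimerizer.

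The variation without fibroblasts had 1 direction. Replicate 2 of MΦ+Dimerizer was the lowest library of its group for 6 of the 6 genes, and replicate 4 the highest for 6 of 6. In MΦ+FV-Casp8+Dimerizer no library was lowest or highest for more than 3 of the 6. The summed B cell markers of MΦ+Dimerizer were 3695, 1456, 5494 and 8148 in replicates 1 to 4, and the summed mast cell markers 1262, 659, 2093 and 3917, with replicate 2 lowest and replicate 4 highest here too. Replicates 1 and 2 of MΦ+Dimerizer were also the libraries of lowest depth in the series. The part of other cells and of depth in this spread was not tested.

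**Figure D3:**
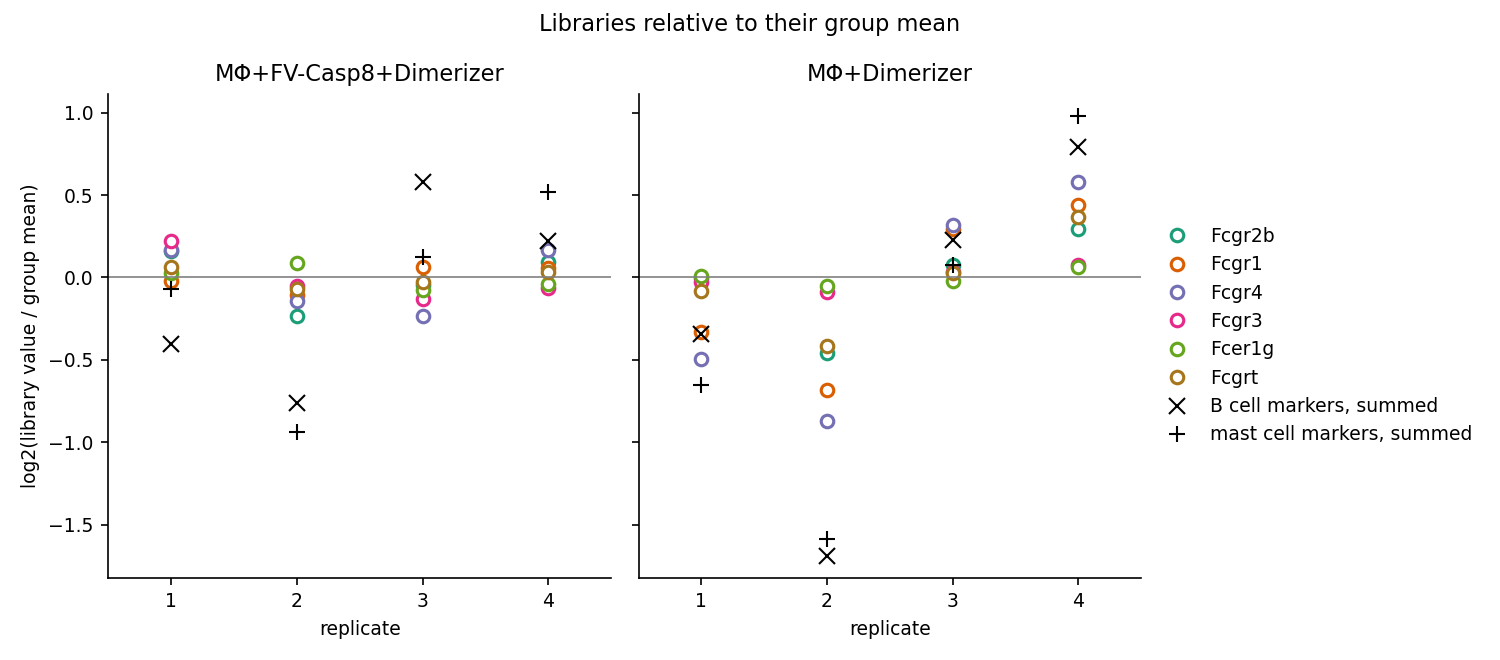
Each library's value relative to the mean of its own group, as a log2 ratio, for the 6 genes (circles) and the summed markers of B cells and mast cells (crosses), with MΦ+FV-Casp8+Dimerizer left and MΦ+Dimerizer right. Without fibroblasts replicate 2 is lowest and replicate 4 highest for all 6 genes and for both marker sums.

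Because inhibitory and activating receptors meet the same antibody, the ratio of Fcgr2b to each activating receptor gene was compared. This ratio is taken within a library and does not depend on its scaling. The log2 ratio of Fcgr2b to Fcgr3 was -1.01, -1.13, -0.87 and -0.79 in MΦ+FV-Casp8+Dimerizer, against -1.86, -2.26, -1.84 and -1.67 in MΦ+Dimerizer. All 4 co-culture libraries were above the other 4. The difference was 0.96, a 1.94-fold shift towards Fcgr2b. In an exact permutation test (two-sided, 70 ways to relabel the libraries) it had p = 0.0286, the smallest p this test can give. After adjustment over the 3 ratios the value was 0.0857, which does not pass 0.05. With 3 ratios, 1 ratio alone at the smallest p could not pass whatever the size of its shift, so the adjusted value does not decide.

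The ratios to the other activating receptors moved less. The log2 ratio of Fcgr2b to Fcgr1 averaged 3.89 ± 0.15 in MΦ+FV-Casp8+Dimerizer and 3.63 ± 0.27 in MΦ+Dimerizer, a difference of 0.27 (exact permutation p = 0.2, adjusted p = 0.3). The log2 ratio of Fcgr2b to Fcgr4 averaged 3.76 ± 0.13 and 3.86 ± 0.41, a difference of -0.10 (exact permutation p = 0.657, adjusted p = 0.657). In both the groups overlapped, and replicates 1 and 2 of MΦ+Dimerizer had higher ratios than replicates 3 and 4.

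**Figure D4:**
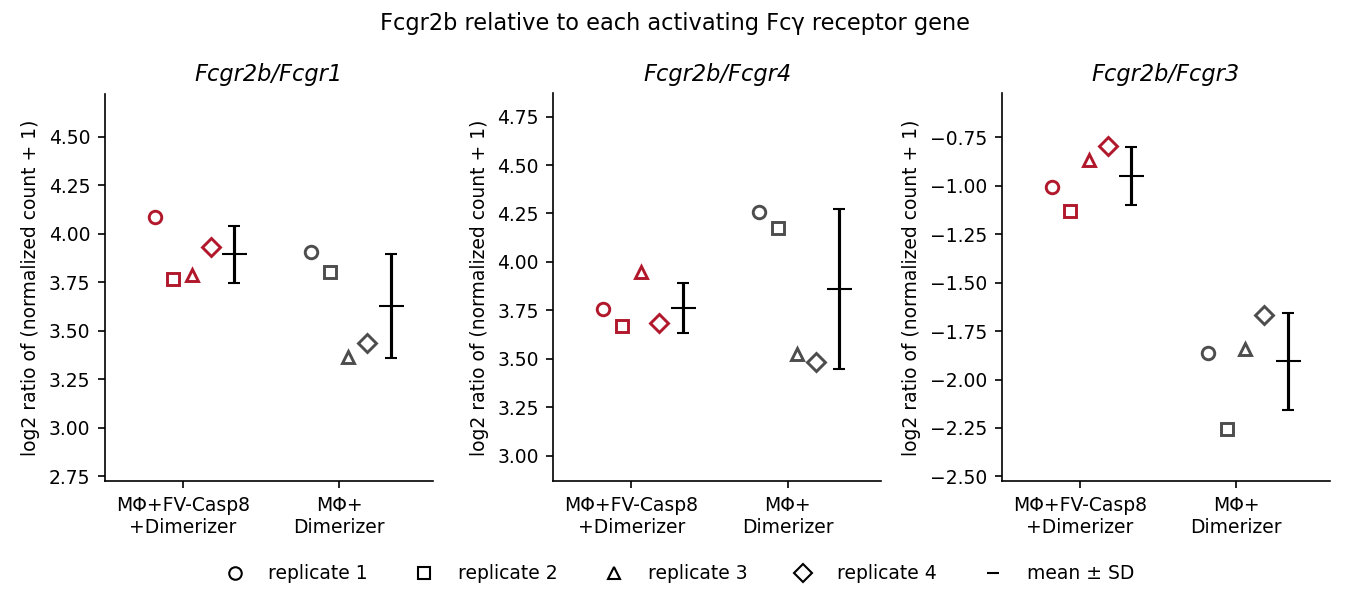
Log2 ratio of Fcgr2b to Fcgr1, Fcgr4 and Fcgr3 in each library, with MΦ+FV-Casp8+Dimerizer left and MΦ+Dimerizer right in each panel and bars for the mean ± SD; the 3 vertical axes differ in position but span the same range. The groups are apart only in the ratio to Fcgr3, by 0.96 on the log2 scale.

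Fcgr1 and Fcgr4 followed each other closely across the 8 libraries (Pearson r = 0.969), as did Fcgr2b and Fcgrt (r = 0.985). Fcgr3 followed none of the others (r from -0.218 to 0.016). These values are a description, since genes that differ between the groups in the same way correlate, and the libraries also differ in depth. Promoters are shown for Fcgr1, Fcgr4 and Fcgr3, the members that held a match to a motif named below. Those of Fcgr2b, Fcgrt and Fcer1g held none and are not shown, although Fcgr2b and Fcgrt were the closer pair. The promoters are RefSeq entries on GRCm38.p6, from 250 bases before to 50 bases after the start in the entry. They are read 5′ to 3′ in the direction of the gene. For Fcgr3 this start lies inside the gene span given above. Both strands were searched for the core of the site of PU.1 (GAGGAA), the myeloid factor, for the GAS element of interferon-γ responses (TTCNNNGAA), for the core of the interferon-stimulated response element, ISRE (GAAA, any 2 bases, GAAA), and for the AP-1 site (TGANTCA), and matches are in capitals.
Fcgr1 promoter (chr3:96293920-96294219, - strand): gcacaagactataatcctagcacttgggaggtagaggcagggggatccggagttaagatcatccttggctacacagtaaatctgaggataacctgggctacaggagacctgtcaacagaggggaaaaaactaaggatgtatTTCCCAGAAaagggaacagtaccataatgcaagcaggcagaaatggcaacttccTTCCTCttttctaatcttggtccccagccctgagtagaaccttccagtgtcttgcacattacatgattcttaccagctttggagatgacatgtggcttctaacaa
Fcgr4 promoter (chr1:171018676-171018975, + strand): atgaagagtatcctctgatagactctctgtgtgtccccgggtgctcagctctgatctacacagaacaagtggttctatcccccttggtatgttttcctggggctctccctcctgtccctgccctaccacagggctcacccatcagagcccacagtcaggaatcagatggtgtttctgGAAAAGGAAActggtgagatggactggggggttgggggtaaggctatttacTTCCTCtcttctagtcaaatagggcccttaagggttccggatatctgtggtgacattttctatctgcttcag
Fcgr3 promoter (chr1:171059354-171059653, - strand): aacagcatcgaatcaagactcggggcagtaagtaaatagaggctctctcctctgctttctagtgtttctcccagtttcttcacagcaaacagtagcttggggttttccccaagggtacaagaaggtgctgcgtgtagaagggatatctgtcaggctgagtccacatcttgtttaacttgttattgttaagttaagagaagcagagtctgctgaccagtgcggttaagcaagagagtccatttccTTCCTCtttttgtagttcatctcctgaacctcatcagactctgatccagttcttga

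The Fcgr1 promoter held a GAS match at position -109 from the start in its RefSeq entry and a PU.1 match at -55. Fcgr4 held an ISRE match at -73 and a PU.1 match at -22. The Fcgr3 promoter held a PU.1 match at -6, and a second RefSeq entry of this gene, shifted by a few bases, held the same match at -15. All 3 PU.1 matches were on the reverse strand, where they read TTCCTC. None of the matches overlapped another, and the promoters of Fcgr2b, Fcer1g and Fcgrt held none of the 4 motifs. Over 32817 promoters of this length, 28.3% held the PU.1 core, 8.29% the GAS, 3.43% the ISRE core and 7.81% the AP-1 site. A match is only a run of letters.

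The genes of receptors and factors that are known to act on Fcγ receptor genes moved in both directions. Of 14 tested, 3 were higher, 4 lower and 7 not called, with a median log2 fold change of -0.15. Over all genes tested the shares were 15.0% higher and 13.7% lower. Il4ra, the interleukin 4 receptor chain, rose to 954.5 ± 70.3 normalized counts in MΦ+FV-Casp8+Dimerizer, against 482.2 ± 73.5 in MΦ+Dimerizer (log2 fold change 0.99, adjusted p = 1.57e-05), and the C5a receptor gene C5ar1 rose to 1987 ± 206, against 1301 ± 45 (0.61, adjusted p = 8.99e-05). Tgfbr1, a TGF-β receptor chain, fell (-0.75, adjusted p = 2.44e-05), as did the interferon regulatory factor gene Irf8 (-0.45, adjusted p = 0.00132). Spi1, which encodes PU.1, had a log2 fold change of -0.11 (SE 0.07, adjusted p = 0.249).

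Irf1, which encodes a factor of the interferon response that binds elements of the ISRE type, was looked at after its values were seen. It had 914, 634, 746 and 735 normalized counts in MΦ+FV-Casp8+Dimerizer, against 1147, 1068, 2507 and 2227 in MΦ+Dimerizer (log2 fold change -1.11, SE 0.24, adjusted p = 0.00327). Replicates 3 and 4 of MΦ+Dimerizer were above replicates 1 and 2, as they were for Fcgr1 and Fcgr4. Between the groups Irf1 was lower in the co-culture while Fcgr1 and Fcgr4 were higher.

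The FcR γ chain also serves C-type lectins that sense damaged cells and microbes. Their genes rose: Clec4e (Mincle) had 844, 796, 878 and 966 normalized counts in MΦ+FV-Casp8+Dimerizer, against 423, 321, 421 and 509 in MΦ+Dimerizer (log2 fold change 1.07, SE 0.12, adjusted p = 2.39e-05). Clec4n (Dectin-2) rose by 0.75 (SE 0.13, adjusted p = 0.000638) and Clec4d by 0.36 (SE 0.08, adjusted p = 0.00456). The genes of the sister adaptors fell. Tyrobp (DAP12) had 12498, 12685, 11120 and 11771 in MΦ+FV-Casp8+Dimerizer, against 15881, 16766, 13805 and 14502 in MΦ+Dimerizer (-0.34, SE 0.09, adjusted p = 0.0112), and Hcst (DAP10) changed by -0.71 (adjusted p = 0.000901). Groups did not overlap in any of these 5 genes, which were all of the list that could be tested. Over all genes tested, 15.3% had every co-culture library above every library without fibroblasts. The share with every co-culture library below was not counted.

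Below the receptors, the kinases and adaptors that read the ITAM did not move together. Of 30 genes tested, 6 were higher, 9 lower and 15 not called, with a median log2 fold change of -0.01. The shares over all genes tested were 15.0% higher and 13.7% lower. Lyn, a Src-family kinase that phosphorylates both ITAM and ITIM, had 3134, 3007, 3166 and 3049 normalized counts in MΦ+FV-Casp8+Dimerizer, against 1960, 1605, 2180 and 2148 in MΦ+Dimerizer (0.66, SE 0.09, adjusted p = 0.000141). Syk, the kinase that docks on the phosphorylated ITAM, had 822, 691, 807 and 767 in MΦ+FV-Casp8+Dimerizer, against 1017, 909, 1049 and 1083 in MΦ+Dimerizer (-0.40, SE 0.08, adjusted p = 0.00264). The groups were apart for both, in opposite directions. Pik3cg, a phosphoinositide 3-kinase, rose (1.08, adjusted p = 2.83e-06), while the Src-family kinase gene Fgr (-1.01, adjusted p = 0.000129) and the protein kinase C gene Prkcd (-0.35) fell.

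Of 14 genes of inhibitory signalling tested, 3 were higher, 7 lower and 4 not called, with a median of -0.24. Among all genes tested, 15.0% were higher and 13.7% lower. Inpp5d, which encodes SHIP1, the phosphatase recruited by the ITIM of FcγRIIb, had 1489, 1515, 1433 and 1340 normalized counts in MΦ+FV-Casp8+Dimerizer, against 1043, 1000, 1060 and 1213 in MΦ+Dimerizer (0.42, SE 0.08, adjusted p = 0.00113). Its groups did not overlap. Ptpn6, which encodes SHP-1, the phosphatase of other ITIM receptors, fell (-0.36, SE 0.11, adjusted p = 0.026), with overlap between the groups. The adaptor gene Dok3 rose (0.46, adjusted p = 0.00123), and the ITIM receptor genes Cd22 (-1.02, adjusted p = 0.000143) and Cd300a (-0.58, adjusted p = 0.00123) fell. So Fcgr2b and Inpp5d rose, while Cd22 and Cd300a fell. The related phosphatase gene Inppl1 also fell (-0.33, SE 0.07, adjusted p = 0.00289), without overlap between the groups.

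Among 32 genes of the phagocytic cup and the oxidase, 9 were higher, 8 lower and 15 not called, with a median of 0.11. For all genes tested the shares were 15.0% higher and 13.7% lower. Arpc3, a subunit of the actin-branching Arp2/3 complex, rose (0.76, adjusted p = 1.42e-05), and so did Bin1, which bends membranes (1.09, adjusted p = 1.91e-05). Myo10, a myosin of the phagocytic cup, fell (-0.996, adjusted p = 2.53e-05). Cybb, the catalytic subunit of the NADPH oxidase, had 20841, 17848, 18534 and 17768 normalized counts in MΦ+FV-Casp8+Dimerizer, against 32372, 31093, 34465 and 33171 in MΦ+Dimerizer (-0.81, SE 0.09, adjusted p = 2.79e-05), and its groups were far apart.

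Of the other immunoglobulin Fc receptor genes and their relatives, 8 of 14 could be tested, with 1 higher, 1 lower (B2m, above) and 6 not called. These counts are near the shares over all genes tested, 15.0% higher and 13.7% lower. Fcrls, an Fc receptor-like gene of macrophages and microglia, had 207.9, 265.8, 334.7 and 284.6 normalized counts in MΦ+FV-Casp8+Dimerizer, against 105.8, 138.0, 151.9 and 147.4 in MΦ+Dimerizer (0.997, SE 0.15, adjusted p = 0.000282), without overlap. Fcamr and Fcrl6 were at 0 in every library. Fcmr, the IgM receptor gene of B cells, averaged 386.0 ± 173.0 in MΦ+FV-Casp8+Dimerizer and 343.4 ± 136.9 in MΦ+Dimerizer (0.19, SE 0.32, adjusted p = 0.708).

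**Figure D5:**
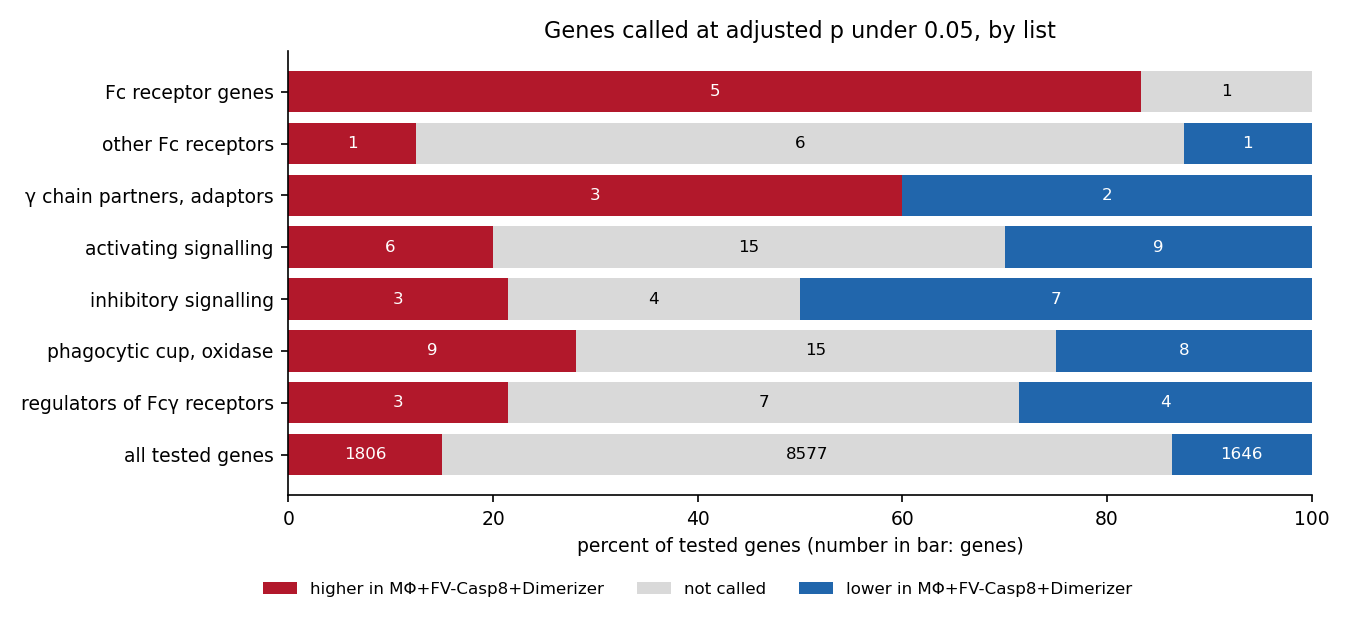
Share of the tested genes of each list called higher (red), not called (grey) or lower (blue) in MΦ+FV-Casp8+Dimerizer against MΦ+Dimerizer at an adjusted p under 0.05, with the number of genes written in each bar. The 6 Fc receptor genes have 5 higher and 0 lower, whereas the lists of their signalling genes are split between directions, and all tested genes have 1806 higher and 1646 lower.

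For each gene the 3 genes whose log2 values followed it most closely over the 8 libraries were listed, out of 10169 genes with a mean of at least 30. With 2 groups, any gene that differs between them in the same way scores highly. Nearest to Fcgr2b were Gda (guanine deaminase, r = 0.995), Wfdc17 (0.992) and Cflar (0.991), an inhibitor of caspase-8, and Gda rose by 1.71 on the log2 scale (adjusted p = 0.000113). Nearest to Fcgr1 were the formyl peptide receptor gene Fpr2 (0.983), the protease gene Ctsc (0.975) and Fcgr4 (0.969), and nearest to Fcgr4 were Ctsc (0.979), Nlrp3 (0.970), the sensor of an inflammasome, and the phosphodiesterase gene Pde4b (0.969). Fcgrt was followed by Sema6b (0.994), Rab3il1 (0.993) and Rassf5 (0.992). Fcer1g was followed by Mospd2 (0.992), Naa40 (0.978) and Ebpl (0.978), and Fcgr3 less closely by Nfkb2 (0.968), Dpy19l3 (0.936) and Zfp408 (0.934).

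Of the remaining cell types, fibroblast markers summed to 2995 to 4453 normalized counts in MΦ+FV-Casp8+Dimerizer and to 7162 to 10787 in MΦ+Dimerizer, and 7 of 8 tested were lower in the co-culture. The collagen gene Col1a2, the most abundant of them, averaged 1465 ± 256 in MΦ+FV-Casp8+Dimerizer and 3557 ± 712 in MΦ+Dimerizer. Mesothelial markers (3 of 3 tested) were lower too. Among all genes tested, 13.7% were called lower and 15.0% higher. Of 4 dendritic cell markers tested 1 was higher and 2 lower, of 3 neutrophil markers 2 were lower, of 3 endothelial markers 1 was lower, of 2 eosinophil markers 1 was lower, and the only T and NK cell marker tested was not called. The eosinophil markers Prg2 and Epx and the cytotoxic cell marker Gzma were at 0 in all 8 libraries. The summed macrophage markers were 244505 ± 11112 in MΦ+FV-Casp8+Dimerizer and 208098 ± 3224 in MΦ+Dimerizer, with 3 of 10 higher and 3 lower. Most of the sum was Lyz2, which was not called (adjusted p = 0.188), although its groups did not overlap and it was higher in the co-culture. The 9 markers without Lyz2 summed to 46250 ± 2868 in MΦ+FV-Casp8+Dimerizer and 44414 ± 2161 in MΦ+Dimerizer, with overlap between the groups. The part of macrophage content in the rise of the Fc receptor genes was not tested.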

How the data were processed

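RNA of macrophages was sequenced by QuantSeq 3′ mRNA-Seq with unique molecular identifiers. Per the study's methods the Lexogen FWD UMI pipeline for QuantSeq (2.3.1) mapped the reads to GRCm38. STAR, HTSeq and DESeq2 are named, without versions, among the tools of the submitters' processing notes. Which annotation release was used is not stated there. The signal the authors deposited is a normalized count: reads scaled by 1 factor for each library. Multiplied back, 100% of values came out whole within 0.001 reads.

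limma 3.58.1 in R 4.3.3 was fitted to log2(normalized count + 1), with a trended variance, over 12029 genes (mean 10 or more), with Benjamini-Hochberg adjustment and a threshold of 0.05. Fold changes on this scale understate changes of low genes. Ratios were compared by exact permutation. Alternatives were other pseudocounts (0.5 and 5), other filters (none, or a mean above 30), quantile and upper-quartile scaling, edgeR 4.0.16 and DESeq2 1.42.0 on the recovered reads, a replicate block, array weights, a robust variance trend and leaving out each library. The fit was tested on simulated data with the same spread setting for every gene. That setting was below the spread of Fcgr1 and Fcgr4 in MΦ+Dimerizer, so the simulation does not speak to their calls.

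The members and lists were chosen with earlier results of these data known. Named genes are the 6 members, the 2 genes per list and direction with the lowest adjusted p, Syk, Inpp5d, Ptpn6, B2m and Tyrobp, abundant markers of other cell types, and for each member the 3 genes that follow it most closely. Spi1, Irf1, Clec4d, Fcmr, Inppl1, genes at 0 and the macrophage marker sum without Lyz2 were added after their values were seen. Values of some listed genes are not reported here.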

Additional observations from a re-analysis of the deposited data

How the results depend on the processing

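Fcgr2b, Fcgrt and Fcgr3 kept their direction and their side of the threshold under all 19 alternatives, with log2 fold changes of 0.71 to 0.96, 0.78 to 1.04 and -0.18 to -0.06. The Fcgr1 call was lost with quantile normalization (0.56, adjusted p = 0.053), in edgeR (0.49, adjusted p = 0.0664) and with a robust variance trend (0.59, adjusted p = 0.0936), and the Fcgr4 call with a robust variance trend (0.95, adjusted p = 0.0746). The Fcer1g call was lost without a filter (0.21, adjusted p = 0.131), with quantile (0.17) and upper-quartile scaling (0.20, adjusted p = 0.0611), in edgeR (0.20) and with array weights (0.19, adjusted p = 0.0517). No direction turned. Leaving out 1 library gave log2 fold changes of 0.39 to 0.76 for Fcgr1, 0.70 to 1.18 for Fcgr4 and 0.19 to 0.24 for Fcer1g. The number of Fc receptor genes called higher, 5, fell to 3 with quantile normalization, in edgeR and with a robust variance trend, and lay between 3 and 5 when 1 library was left out. The causes were not tested.

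Same-numbered libraries of the groups had correlated deviations of 0.088, 0.341, 0.293 and 0.194, and each library correlated best with its own number, a hint of pairing from the data. The deposited column names of same-numbered libraries also begin with a shared number, a further hint. Neither the labels nor these names say what a number marks, and 1 of the 4 values was not over 0.1. The numbers were therefore not taken as pairs in the main fit, and the replicate block served as an alternative. With a replicate block 4411 genes were called, against 3452 without. The block lost no member call and called 2 other Fc receptor genes higher, against 1, while quantile normalization called 0 of that list lower. Fcgr4 rested on as few as 92 reads in a library.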
